A study of Bos taurus with 12 samples.

Results

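The mitosis and spindle genes examined here are a list of 43 genes whose products carry a cell through mitosis, from the cyclins and kinases that start it to the proteins that part the daughter cells. Members were found by the gene name that the array's scanner files give each probe. That found 39 of the 43 genes on 90 probes, out of 25314 distinct gene names on 43622 probes in all, and the brightest probe of a gene stood for it. CENPA, MAD2L1, MKI67 and TOP2A matched no probe by name and were not analysed as members. All 39 found members passed the filter on dim probes, which asked for a signal well above background on at least 3 of the 12 arrays.

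The samples are endometrial biopsies of 3 cows, labelled fertile, taken on days 0, 2, 7 and 14 after povidone-iodine, an antiseptic that releases iodine, was given into the uterus. All 3 cows received it, the same 3 animals gave every day's biopsies from both uterine horns, and day 0 is the only baseline. The labels give neither the animals' ages nor their stage of the oestrous cycle, so antiseptic, time, cycle and repeated biopsy cannot be told apart in any difference between days. Each biopsy sample was hybridised to 1 one-colour array, which gives 3 arrays a day.

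In mitosis, cyclins bound to CDK1 start the condensation of chromosomes and the building of the spindle, and kinetochores tie each chromosome to spindle microtubules. The spindle checkpoint holds the cell until every kinetochore is attached; then CDC20 and the anaphase-promoting complex mark securin and the B cyclins for destruction, and the cell divides at the midzone. Most of these transcripts are made late in each cell cycle and are scarce in resting cells, so in tissue they are commonly read as marks of dividing cells. In ruminant endometrium, dividing cells are found in the surface and gland epithelium and in the stroma, and their number moves with the oestrous cycle and with repair. In biopsies such as these, fewer cells of a type and less RNA per cell cannot be told apart.

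A signal below is log2 of the processed probe intensity minus the array's 75th percentile, so that 0 is that percentile, and a change is a difference of such values between days, estimated with the cow as a block. A probe's signal also depends on the probe itself, so signals are set against each other only within a gene. Adjusted p-values are from limma with Benjamini-Hochberg adjustment over all 33539 probes kept, and "called" means an adjusted p under 0.05. Shares of all probes are given only for the fit as reported. They count every probe kept, with several for some genes. Shares of members and of other lists count each gene once, by its brightest probe. Counts under other settings, at an unadjusted p under 0.05 or at an adjusted p under 0.1 have no such share beside them. Those counts therefore do not show whether the members differed from the array as a whole.

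Sample names differed between the deposited files. Each column of the authors' deposited value table matched 1 scanner file with a correlation of 1.0, but in 10 of 12 cases the file was linked to another sample. The names of the value table are used here, under which each cow fills 1 slide and each day 1 slide position, so that cow and slide, and day and position, cannot be told apart. Under the names of the file links, none of the 39 members was called in any of the 6 contrasts or the F-test, and none reached an unadjusted p under 0.05. The members' median change was then 0.89 on day 2, 0.17 on day 7 and 0.55 on day 14 against day 0. Every result below rests on the value table's names. The day 2 array of cow 3 also stood apart, with 63.2% of probes well above background against 71.3 to 76.0% on the other arrays. The 11 epithelial markers that the array carries were well above background on all 12 arrays.

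The probes of the 11 members called in at least 1 contrast or in the F-test over the 4 days are shown first, because each value below is the signal of 1 such probe of 60 bases. Each line gives the first 30 bases, in lower case, as written in the scanner files, and the positions are those of the whole probe on the Btau 3.1 build that the files give. The strand follows from the order in which the files write start and end. The probe of ASPM is placed on chr16:74328368-74330397 (minus strand), a span of 2030 bases and so longer than the probe. Those of CCNB2 and CDCA8 lie on chr10:51741435-51741494 and chr3:115377848-115377907 (minus strand). On the plus strand, the probe of BUB1 lies on chr11:1688897-1688955, BUB1B on chr10:35743164-35743223, BUB3 on chr26:43531705-43531764, CCNA2 on chr6:3386872-3386931, KIF23 on chr10:16583062-16583121, SPC25 on chr2:28186653-28186712 and TTK on chr9:19742658-19742717.
ASPM: tgtaagaaccacaatggtttcaagactcaa
BUB1: aggtttatattttgcgtaaaataagcaaaa
BUB1B: tcacctgaacaaagctttttggaaagtggg
BUB3: tgtgcagcttgaggtctttctgtaaaataa
CCNA2: ctcaacccaccagagacactaaatgtgtaa
CCNB2: aagtatgcaagcagcaaactcctgaagatc
CDCA8: gccatgcccagtagttttgtctcaagctga
KIF23: gccatatttaatattagtagcagagaaaga
SPC25: agtaaggcagaccaacaatttttcagcttt
TTK: tatgttctgggccaacttgttggcctgaat

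CCNB1, which moved against most of the other members in some contrasts and with them in others, is read by 2 probes, and both lie at 1 place. They cover chr20:11106729-11106792 (the brighter) and chr20:11106709-11106768, both on the minus strand, so their positions overlap. Below, 30 bases of each are given from the start of their longest shared run, which is in capitals. That run is 22 bases long, starts at base 25 of the brighter probe and at base 1 of the other, and both probes go on differently after it. The 2 probes are therefore no independent readings of CCNB1.
CCNB1, brighter probe: GGAATACTACCTGCAAATAAAActccatgt
CCNB1, other probe: GGAATACTACCTGCAAATAAAAttggcacc

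Taken as a whole, the 39 members were higher on every later day than on day 0. In cows 1 and 2 their median was lower on day 7 than on days 2 and 14. In cow 3 it was lower on day 2 than on day 7. Their median signal was -4.42, -1.20, -3.57 and -2.03 in cow 1 on days 0, 2, 7 and 14, -2.92, -1.05, -2.48 and -0.54 in cow 2, and -4.82, -3.05, -2.07 and -2.04 in cow 3. The medians of days 2 and 14 lay above the day 0 median of the same cow in all 3 cows, as did those of day 7, by less in cows 1 and 2. Detection rose with each later day, on day 7 too: 27 members were well above background on all 3 arrays of day 0, 35 on day 2, 37 on day 7 and 39 on day 14. On day 0 the other 12 were well above background on 1 or 2 of the 3 arrays, so their changes against day 0 are not exact sizes. Those on 1 array were FOXM1, TTK, CENPF, CDCA8, NEK2, KIF11, ASPM and ANLN. Those on 2 arrays were CDC20, NDC80, DLGAP5 and KIF20A. The F-test over the 4 days called 9 members, beside 7.82% of all probes. It called 0 without cow 1 or cow 2 and 29 without cow 3; leaving out single arrays gave 0 to 5, except for 20 without the day 2 array of cow 3 and 33 without its day 7 array.

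**Figure D1:**
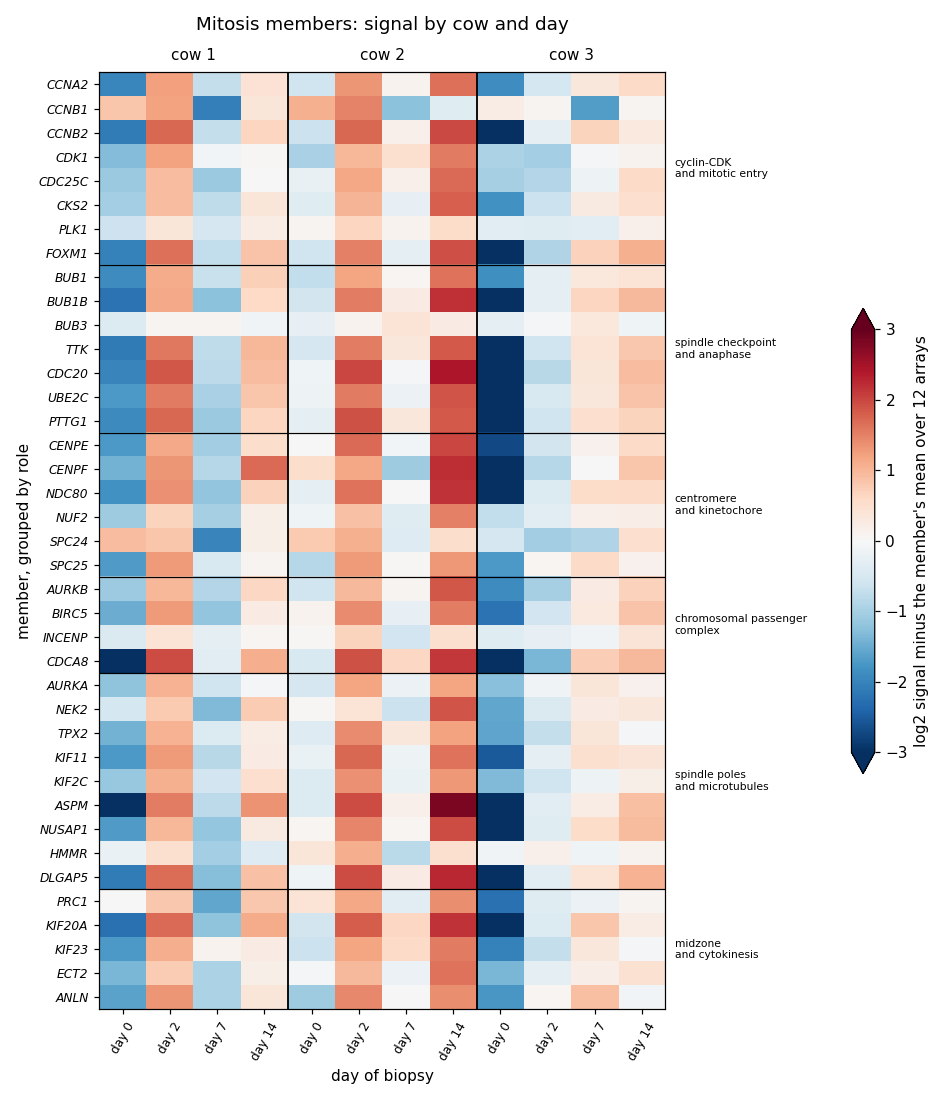
Log2 signal of the 39 members (rows, grouped by role) on the 12 arrays (columns, days 0 to 14 within each cow), minus each member's mean over the 12 arrays; colours end at -3 and 3. Most rows are lowest on day 0; in cows 1 and 2 days 2 and 14 stand out as high, while in cow 3 day 2 is low and days 7 and 14 are alike. CCNB1 is the clearest exception, lowest on day 7 in every cow.

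Against day 0, 38 of the 39 members (97.4%) had a positive change on day 2, compared with 50.1% of all probes, and 32 (82.1%) a change over 1 on the log2 scale, compared with 6.40% of all probes. The members' median change was 2.03 (range -0.12 to 3.66, median SE 0.53), while that of all probes was 0.00. Within cows the median was 2.77, 1.80 and 1.64. Of the 39 members, 5 rose past the threshold and none fell, a share of 12.8%, against 2.52% of all probes called (1.63% higher and 0.894% lower). At an unadjusted p under 0.05 stood 33 members, with no share of all probes at that cut to set beside them. In 10 members every day 2 array lay above every day 0 array, a share of 25.6% beside 12.6% of all probes.

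How many members were called on day 2 depended on single arrays. None was called without any 1 of the 3 day 0 arrays, the day 2 array of cow 1 or of cow 2, or the day 14 array of cow 1; 2 were called without the day 7 array of cow 2 and 3 without the day 14 array of cow 3. Without the day 2 array of cow 3 there were 9, and without its day 7 array 25. Leaving out a whole cow gave 0 (cow 1), 0 (cow 2) and 20 (cow 3).

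On day 7 the members spread apart. Their median change against day 0 was 1.23 (range -2.37 to 2.90), with 34 of 39 above 0 (87.2%, compared with 52.7% of all probes) and 23 above 1 (59.0%, compared with 10.1%). The median was 0.65, 0.33 and 2.30 in cows 1, 2 and 3, so most of the day 7 rise lay in cow 3. In this contrast 7 members rose and 1 fell, 20.5% in all (17.9% higher, 2.56% lower), against 18.2% of all probes (10.3% higher, 7.90% lower). The share called in either direction was thus near that of the array as a whole. The arrays of days 7 and 0 did not overlap for 7 members that were higher and 1 that was lower. Beside the 17.9% of members higher without overlap stands 20.8% of all probes (17.1% were lower without overlap). Leaving out cow 1 or cow 2 left 0 calls and leaving out cow 3 left 6. Without the day 0 arrays of cows 1, 2 and 3 there were 1, 2 and 3, without their day 7 arrays 3, 2 and 3, without their day 14 arrays 3, 5 and 4, and without the day 2 arrays of cows 2 and 3 there were 3 and 13.

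Day 14 combined large and even changes with no call. The median change against day 0 was 2.08 (range -0.68 to 4.29), and cows 1, 2 and 3 had 1.95, 2.03 and 2.32, the closest accord among cows of the 3 days. Above 0 were 37 members (94.9%, compared with 54.0% of all probes), and 33 were above 1 (84.6%, compared with 5.91%). For 35 members (89.7%) every day 14 array lay above every day 0 array, which held for 14.2% of all probes; the exceptions were CCNB1, SPC24, HMMR and PRC1. Yet limma called none of the 39 (0.116% of all probes were called). Of the members, 34 had an unadjusted p under 0.05, and 25 an adjusted p under 0.1, the lowest being 0.0542 for ASPM. No share of all probes at these looser cuts is given, so these counts are not set against the array. Leaving out the day 7 array of cow 3 gave 25 calls, and leaving out any other single array or any whole cow gave 0. With the background corrected by normexp and quantile normalization 6 members were called, and among the 27 members well above background on all 12 arrays 3 were.

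**Figure D2:**
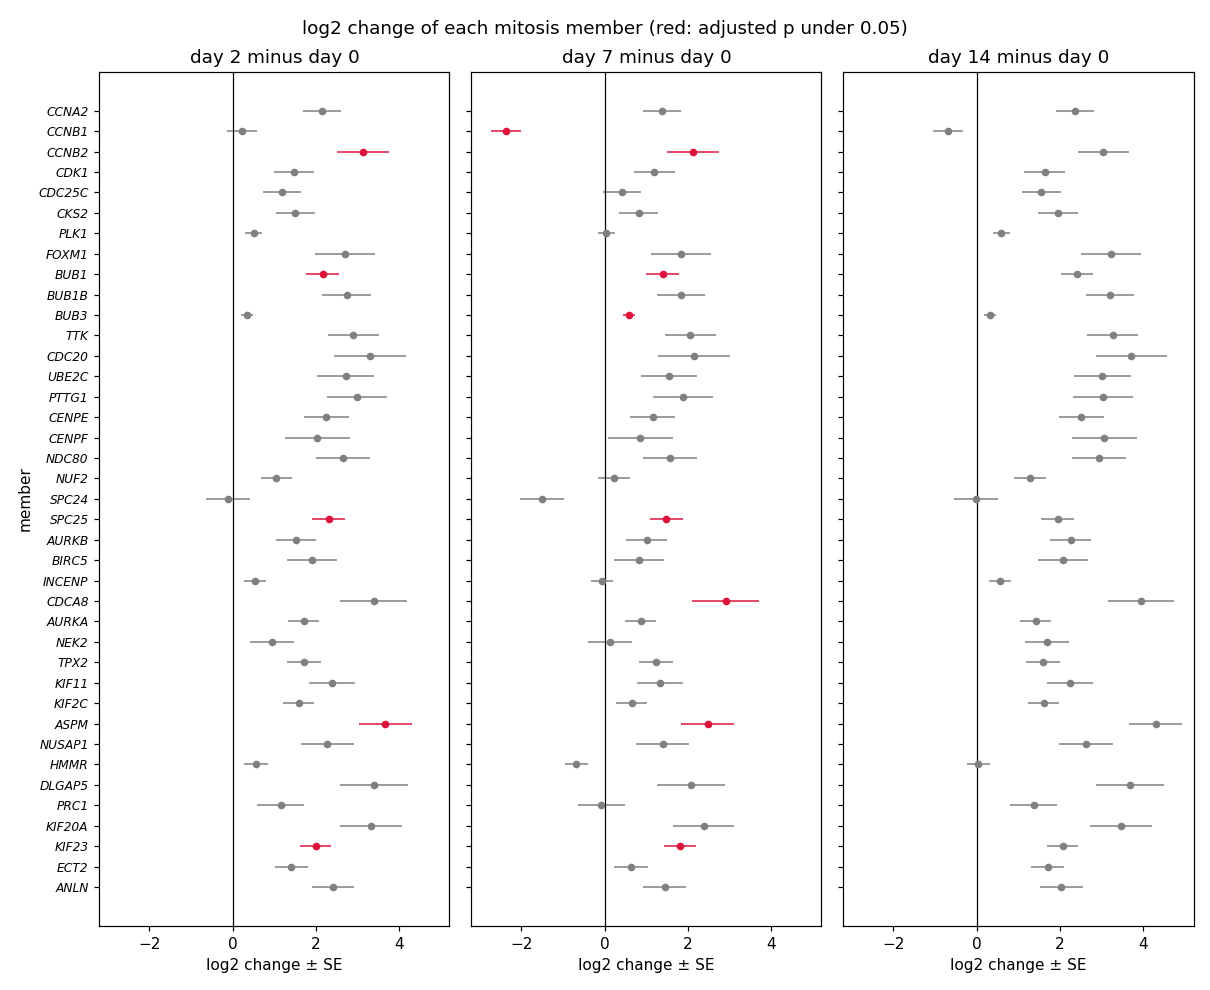
Log2 change of each of the 39 members on days 2, 7 and 14 minus day 0, as the estimate ± SE of the fit (3 cows a day); red marks an adjusted p under 0.05. On days 2 and 14 nearly all points lie right of 0, on day 14 with none in red; on day 7 CCNB1 at -2.37 stands alone as a red point left of 0.

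The later days were also compared with each other. Day 7 was lower than day 2 in 38 of 39 members, with a median change of -0.88, but the cows did not move alike: the median was -2.16 in cow 1 and -1.37 in cow 2 and 0.79 in cow 3. CCNB1 was the only member called in that contrast (0.474% of all probes were called, 0.274% lower), and CCNB1 and HMMR were the 2 whose arrays did not overlap (8.71% of all probes were lower without overlap). Without cow 3, 19 members were called in that contrast, and without its day 7 array 2; the call of CCNB1 was kept in 14 of 26 other settings and lost without cow 1 or cow 2, any 1 of their arrays of days 0, 2 and 7, or the day 14 array of cow 1. From day 7, day 14 was higher in 38 of 39 members with a median of 1.13 (1.41, 1.58 and 0.26 in cows 1, 2 and 3). In 23 of them (59.0%, compared with 9.65% of all probes) the day 14 arrays lay wholly above those of day 7, and none was called (0.146% of all probes; 18 members at an unadjusted p under 0.05). Day 14 minus day 2 had a median of 0.22, with 30 members above 0 and 9 below, and -0.73, 0.31 and 0.97 in cows 1, 2 and 3; no member and no probe was called (0% of all probes), and 1 member had an unadjusted p under 0.05. The sign of that median turned without cow 3 (-0.21), without its day 2 array (-0.20), with arrays weighted by their quality (-0.55, where 16 members were called lower) and under the names of the file links (-0.40).

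The day on which a member peaked differed by cow. In cow 1, 36 of the 39 members were highest on day 2, where 23.5% of all probes were highest. In cow 2, 27 were highest on day 14 and 11 on day 2, where 27.9% and 19.2% of all probes peaked. In cow 3, 28 were highest on day 14, 9 on day 7 and 1 on day 2, compared with 23.5%, 28.2% and 18.8% of all probes. The lowest day was day 0 for 33, 27 and 34 members in cows 1, 2 and 3. Only 3 members had the same highest day in all 3 cows, 1 each on days 2, 7 and 14.

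**Figure D3:**
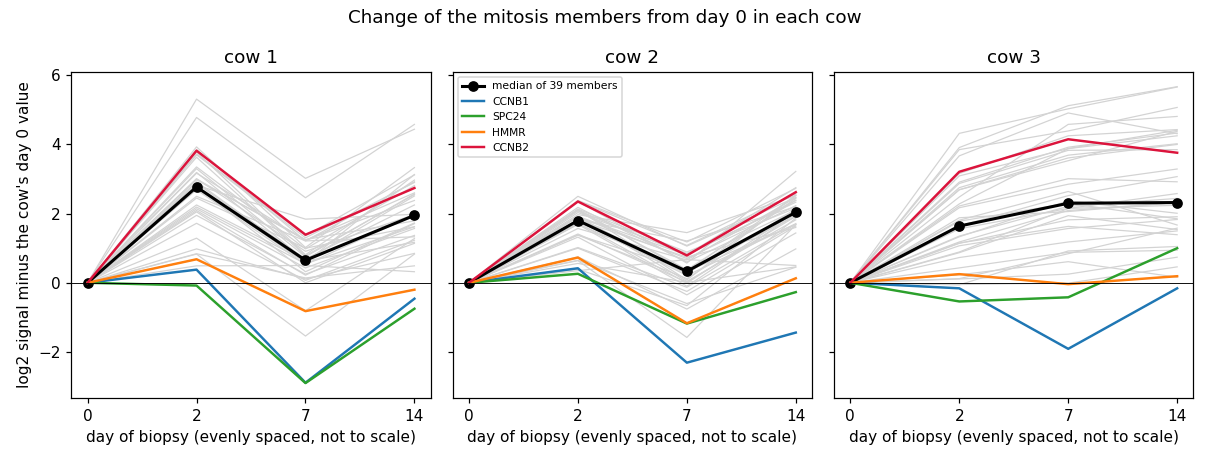
Log2 signal minus the cow's own day 0 value over the days, 1 panel per cow; grey lines are the 39 members, the black line their median, and 4 members are coloured. Cows 1 and 2 show a dip on day 7 between the peaks of days 2 and 14, whereas in cow 3 the median climbs to 2.30 on day 7 and stays at 2.32 on day 14.

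Among the 8 cyclin, CDK1 and mitotic entry genes, the median change against day 0 was 1.49 on day 2, 1.01 on day 7 and 1.79 on day 14. CCNB2 encodes cyclin B2, a partner of CDK1. Its signal was -4.84, -1.02, -3.45 and -2.10 in cow 1 on days 0, 2, 7 and 14, -3.38, -1.03, -2.59 and -0.76 in cow 2, and -6.22, -3.01, -2.07 and -2.46 in cow 3. Every array of days 2 and 14 was above every array of day 0, while day 7 overlapped with day 0 through cow 1. CCNB2 rose on day 2 by 3.13 ± 0.62 (SE; 8.75-fold, adjusted p = 0.0432) and on day 7 by 2.11 ± 0.62 (adjusted p = 0.0499), and its day 14 change was 3.04 (adjusted p = 0.0715). Its second probe, at another place of chromosome 10, gave 3.42 on day 2 and 2.27 on day 7. The day 2 call of CCNB2 was kept in 8 of 26 other settings and the day 7 call in 6. Its day 7 change was 1.22 without the day 7 array of cow 3 (adjusted p = 0.0831), 1.09 without cow 3 (adjusted p = 0.105) and -0.09 under the names of the file links.

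CCNB1 encodes cyclin B1, the main activating cyclin of CDK1 in mitosis. Its signal was 2.36, 2.74, -0.53 and 1.90 in cow 1 on days 0, 2, 7 and 14, 2.60, 3.02, 0.29 and 1.16 in cow 2, and 1.76, 1.6, -0.15 and 1.6 in cow 3. The 3 arrays of day 7 were the 3 lowest of the 12, with no overlap with any other day. CCNB1 fell on day 7, by 2.37 ± 0.36 on the log2 scale against day 0 (5.16-fold lower, adjusted p = 0.00654) and by 2.59 against day 2 (6.0-fold lower, adjusted p = 0.0368). Its changes on days 2 and 14 against day 0 were 0.22 ± 0.36 and -0.68 ± 0.36 (adjusted p = 0.768 and 0.321). The day 7 fall against day 0 was called in 23 of 26 other settings. It was not called without cow 1 (-2.11, adjusted p = 0.123), without cow 2 (-2.40, adjusted p = 0.0698), or under the names of the file links (-0.45, adjusted p = 0.981). Signals of CCNB1 were thus lower and those of CCNB2 higher on day 7 than on day 0 in each of the 3 cows. Each change was past the threshold as reported, but the call of CCNB2 was kept in far fewer settings than that of CCNB1.

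CCNA2, the cyclin of DNA replication and early mitosis, had -4.90, -1.73, -3.67 and -2.52 in cow 1 on days 0, 2, 7 and 14, -3.54, -1.64, -2.84 and -1.31 in cow 2, and -4.82, -3.47, -2.61 and -2.38 in cow 3. It differed among the days by the F-test (adjusted p = 0.0465), with changes of 2.14, 1.38 and 2.35 on days 2, 7 and 14 (adjusted p = 0.0528, 0.0711 and 0.0690). The other 5 genes of this group were not called: CDK1, the kinase itself; CDC25C, a phosphatase that activates it; CKS2, a small subunit; PLK1, a kinase of mitotic entry; and FOXM1, a transcription factor of late cell cycle genes. Their changes ran from 0.50 (PLK1) to 2.70 (FOXM1) on day 2, 0.04 to 1.84 on day 7, and 0.59 to 3.23 on day 14, with PLK1 lowest and FOXM1 highest each time. Only 1 of the 3 day 0 values of FOXM1 was well above background, so its changes are not exact sizes. The dimmer probe of FOXM1, well above background on 4 of 12 arrays, gave 0.25 on day 2 and -0.05 on day 7, so its 2 probes disagreed.

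For the 7 spindle checkpoint and anaphase genes the medians were 2.73, 1.83 and 3.02 on days 2, 7 and 14. BUB1, a checkpoint kinase at the kinetochore, had -5.30, -2.30, -4.07 and -2.70 in cow 1 on days 0, 2, 7 and 14, -4.15, -2.23, -3.35 and -1.77 in cow 2, and -5.25, -3.69, -3.10 and -3.01 in cow 3. No array of a later day reached down to any array of day 0. BUB1 rose by 2.16 ± 0.39 on day 2 (4.45-fold, adjusted p = 0.0353) and by 1.39 ± 0.39 on day 7 (2.62-fold, adjusted p = 0.0438), and stood 2.41 higher on day 14 (adjusted p = 0.0563). Its other 2 probes gave 2.14 and 2.10 on day 2. The day 2 call of BUB1 was kept in 13 of 26 other settings and the day 7 call in 5; without the day 7 array of cow 3 the day 7 change was 0.88 (adjusted p = 0.0969).

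BUB1B, which encodes the checkpoint protein BubR1, had -4.81, -1.46, -3.83 and -2.0 in cow 1 on days 0, 2, 7 and 14, -3.16, -1.07, -2.35 and -0.41 in cow 2, and -5.65, -2.90, -1.96 and -1.63 in cow 3. TTK, the kinase that recruits the checkpoint to kinetochores, had -6.47, -2.75, -5.11 and -3.35 in cow 1 on days 0, 2, 7 and 14, -4.84, -2.81, -3.99 and -2.51 in cow 2, and -7.85, -4.94, -3.93 and -3.52 in cow 3. Both differed among the days by the F-test (adjusted p = 0.0413 for BUB1B and 0.0430 for TTK) and both had their lowest array on day 0 in cow 3. On day 2 their changes were 2.73 and 2.89 (adjusted p = 0.0511 and 0.0504), and on day 14 they were 3.20 and 3.26 (adjusted p = 0.0622 and 0.0637). On day 0 only 1 of the 3 TTK values was well above background.

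BUB3, a protein that binds BUB1 and BubR1, moved little but evenly: it had 2.15, 2.64, 2.65 and 2.47 in cow 1 on days 0, 2, 7 and 14, 2.31, 2.66, 2.98 and 2.81 in cow 2, and 2.28, 2.51, 2.89 and 2.44 in cow 3. All later arrays were above all day 0 arrays, and day 7 was called (0.59 ± 0.14, 1.51-fold higher, adjusted p = 0.0268). That call was lost without any 1 of the 6 arrays of days 0 and 7 except the day 0 array of cow 3, and without any whole cow (adjusted p from 0.0513 to 0.231). CDC20, which activates the anaphase-promoting complex, had -4.95, -1.10, -3.74 and -2.03 in cow 1 on days 0, 2, 7 and 14, -3.08, -0.97, -3.0 and -0.54 in cow 2, and -7.71, -3.80, -2.59 and -2.04 in cow 3. Its day 14 change was 3.71 ± 0.86 (adjusted p = 0.0855; 2 of the 3 day 0 values were well above background), with no overlap between the days and a range among the day 0 arrays of cows that was wider than that of any later day. On days 2, 7 and 14, UBE2C, the complex's ubiquitin-conjugating enzyme, had changes of 2.71, 1.54 and 3.01, and PTTG1, securin, of 2.99, 1.88 and 3.02, none of them called. A dim second probe of PTTG1 gave 1.39 on day 2 and -0.58 on day 7.

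The 6 centromere and kinetochore genes had medians of 2.13, 1.00 and 2.22 on days 2, 7 and 14, and 4 of them form the NDC80 complex, which grips microtubules: NDC80, NUF2, SPC24 and SPC25. SPC25 had -4.85, -1.87, -3.60 and -3.06 in cow 1 on days 0, 2, 7 and 14, -4.00, -1.87, -3.11 and -1.84 in cow 2, and -4.86, -3.08, -2.56 and -3.01 in cow 3. Every later array was above all 3 of day 0. SPC25 rose by 2.30 ± 0.40 on day 2 (4.91-fold, adjusted p = 0.0312), the smallest adjusted p of any member on that day, and by 1.48 ± 0.40 on day 7 (adjusted p = 0.0380), and its day 14 change was 1.94 (adjusted p = 0.0715). The day 2 call was kept in 15 of 26 other settings and the day 7 call in 8, and without the day 7 array of cow 3 the day 7 change was 0.97 (adjusted p = 0.0805).

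SPC24 did not follow its partner subunit. Its signal was 3.82, 3.74, 0.92 and 3.07 in cow 1 on days 0, 2, 7 and 14, 3.70, 3.96, 2.52 and 3.43 in cow 2, and 2.41, 1.87, 1.99 and 3.41 in cow 3. Days 2 and 14 overlapped with day 0, and day 7 did so through cow 2. The changes were -0.12 ± 0.53, -1.50 ± 0.53 and -0.01 ± 0.53 on days 2, 7 and 14 (adjusted p = 0.920, 0.0837 and 0.994). A dimmer SPC24 probe at another place of chromosome 7 had -1.91 on day 7 with an adjusted p of 0.0246; it was not the probe the rule chose. The other two subunits had 2.65, 1.57 and 2.93 (NDC80) and 1.05, 0.23 and 1.27 (NUF2). CENPE, a kinetochore motor, and CENPF, a large kinetochore protein, had 2.24 and 2.03 on day 2 and 2.51 and 3.06 on day 14; none of these was called.

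In the chromosomal passenger complex, which corrects faulty attachments and later steers cytokinesis, CDCA8 (borealin) had -8.31, -3.0, -5.29 and -3.87 in cow 1 on days 0, 2, 7 and 14, -5.41, -3.05, -4.33 and -2.84 in cow 2, and -8.80, -6.32, -4.22 and -3.99 in cow 3. Of its day 0 values only that of cow 2 was well above background, so those of cows 1 and 3 lie near the floor of the array. CDCA8 rose on day 7 by 2.90 ± 0.80 (adjusted p = 0.0412), and its changes on days 2 and 14 were 3.38 and 3.94 (adjusted p = 0.0682 and 0.0712); with 1 of 3 day 0 values well above background, none of these changes is an exact size. The day 7 call was kept in 6 of 25 other settings and was lost without a block for the cow, without any whole cow and without any 1 of the 6 arrays of days 0 and 7, for example at 2.05 without the day 7 array of cow 3 (adjusted p = 0.116). AURKB, the complex's kinase, and BIRC5 (survivin) had 1.52 and 1.91 on day 2 and 2.25 and 2.08 on day 14, while INCENP, its scaffold, had 0.53, -0.07 and 0.56 on days 2, 7 and 14; none was called.

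The 9 genes of spindle poles and microtubules had medians of 1.72, 1.23 and 1.69, and they include ASPM, a spindle pole protein. It had -7.53, -2.75, -5.07 and -2.95 in cow 1 on days 0, 2, 7 and 14, -4.70, -2.34, -4.13 and -1.48 in cow 2, and -8.47, -4.62, -4.08 and -3.40 in cow 3. Cows 1 and 3 were far below cow 2 on day 0, where only the array of cow 2 was well above background, and all arrays of day 14 were above all of day 0. ASPM rose by 3.66 ± 0.64 on day 2 (adjusted p = 0.0326) and by 2.47 ± 0.64 on day 7 (adjusted p = 0.0343), and its day 14 change was 4.29 ± 0.64 (adjusted p = 0.0542). Since the day 0 values of cows 1 and 3 were not well above background, these sizes are not exact. The day 2 call was kept in 12 of 25 other settings and the day 7 call in 10, and without cow 3 the day 7 change was 1.51 (adjusted p = 0.122).

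DLGAP5, which stabilises spindle microtubules, had -4.84, -1.06, -4.03 and -1.87 in cow 1 on days 0, 2, 7 and 14, -2.87, -0.79, -2.49 and -0.48 in cow 2, and -7.37, -3.05, -2.34 and -1.71 in cow 3. Its changes were 3.39, 2.07 and 3.67 (adjusted p = 0.0709, 0.112 and 0.0805). HMMR, which binds hyaluronan and spindle microtubules, was another exception, with 0.61, 1.29, -0.21 and 0.41 in cow 1 on days 0, 2, 7 and 14, 1.16, 1.89, -0.01 and 1.29 in cow 2, and 0.71, 0.96, 0.67 and 0.90 in cow 3. Days 2 and 7 did not overlap, with day 7 lower, and the changes against day 0 were 0.56, -0.68 and 0.04 (adjusted p = 0.302, 0.129 and 0.945). AURKA and NEK2, kinases of the centrosome, TPX2, which activates AURKA, the motors KIF11 and KIF2C, and NUSAP1, a microtubule-bundling protein, were not called; their lowest and highest changes were 0.94 (NEK2) and 2.38 (KIF11) on day 2, 0.12 (NEK2) and 1.39 (NUSAP1) on day 7, and 1.41 (AURKA) and 2.62 (NUSAP1) on day 14.

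Midzone and cytokinesis genes, 5 in number, had medians of 1.99, 1.44 and 2.03. KIF23, the motor of centralspindlin, had -4.71, -1.89, -2.87 and -2.73 in cow 1 on days 0, 2, 7 and 14, -3.62, -1.80, -2.41 and -1.42 in cow 2, and -5.02, -3.69, -2.65 and -3.01 in cow 3. Days 7 and 14 lay wholly above day 0, and on day 2 cow 3 just fell among the day 0 arrays. KIF23 rose by 1.99 ± 0.38 on day 2 (3.97-fold, adjusted p = 0.0386) and by 1.80 ± 0.38 on day 7 (3.49-fold, adjusted p = 0.0174), and its day 14 change was 2.06 (adjusted p = 0.0634). The day 2 call was kept in 10 of 26 other settings, and the day 7 call in 20. Its other 2 probes had changes of 1.81 and 1.85 on day 2.

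KIF20A, a motor of the midzone, had -4.59, -0.66, -3.57 and -1.26 in cow 1 on days 0, 2, 7 and 14, -2.92, -0.54, -1.74 and -0.19 in cow 2, and -6.44, -2.77, -1.53 and -2.13 in cow 3. Its changes were 3.32, 2.37 and 3.46 (adjusted p = 0.0568, 0.0580 and 0.0752). PRC1, which bundles antiparallel microtubules, ECT2, the exchange factor that sets the division plane, and ANLN, anillin of the contractile ring, were not called. Over days 2, 7 and 14 PRC1 had 1.15, -0.08 and 1.37, ECT2 had 1.41, 0.63 and 1.70, and ANLN had 2.41, 1.44 and 2.03.

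**Figure D4:**
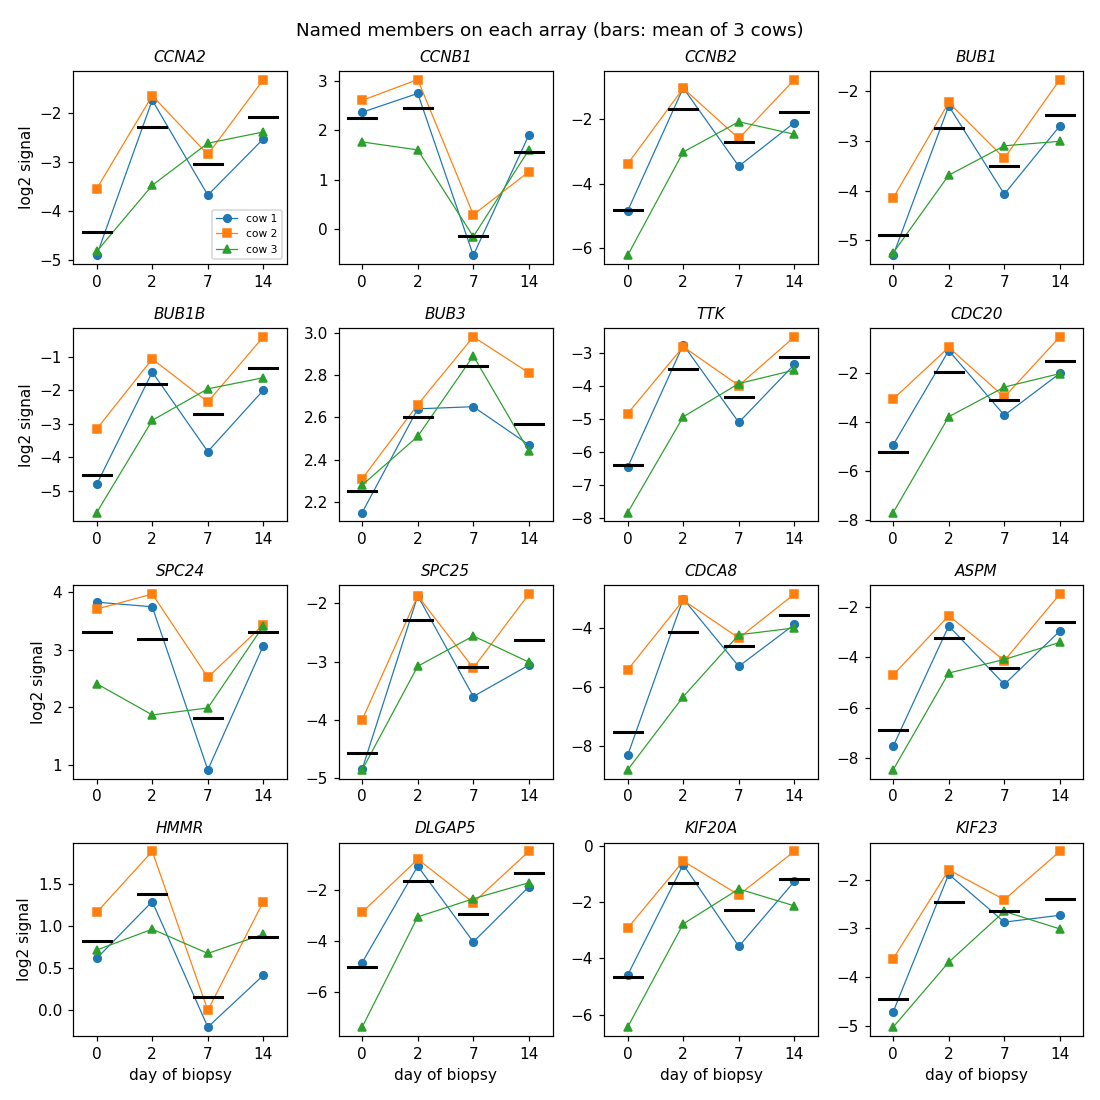
Log2 signal of the 16 named members on each of the 12 arrays over the days, evenly spaced; symbols and thin lines mark the cow and bars the mean of 3 cows. The axes differ by panel. CCNB1 drops on day 7 in all 3 cows, SPC24 in cows 1 and 2 most, while the others have their lowest mean on day 0, apart from HMMR.

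Different probes of a gene mostly moved the same way: of 27 members with more than 1 tested probe, all 27 had probes of 1 sign on day 2, 24 on day 7 and 26 on day 14.

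Probes outside the rule that the files name MAD2, or describe as MAD2L1 or topoisomerase 2-alpha, gave values for genes not found by name. The changes of the 4 MAD2 probes, a checkpoint protein, spanned 0.56 to 0.92, -0.43 to 0.06 and 0.01 to 0.55 over days 2, 7 and 14. The changes of the 3 probes of topoisomerase 2-alpha, which untangles sister chromatids, spanned 2.34 to 2.92, 1.53 to 2.10 and 3.03 to 3.25 (adjusted p from 0.0894 to 0.214). None of these was called.

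Other genes of the pathway were taken from lists drawn up by function. Of 85 further mitosis genes, 66 were tested: on day 2, 5 rose and none fell (median change 1.03), on day 7, 7 rose and 2 fell (0.61), and on day 14 none was called (1.12). The share called was 7.58% on day 2 and 13.6% on day 7, beside 2.52% and 18.2% of all probes, so on day 7 it was below that of the array as a whole. By direction, 10.6% were called higher and 3.03% lower on day 7, beside 10.3% and 7.90% of all probes. By the F-test, the 4 lowest p-values belonged to CENPH, NCAPG, CKS1B and CDC25B. NCAPG, a condensin subunit, rose by 3.00 on day 2 and 2.14 on day 7 (adjusted p = 0.0293 and 0.0253). CENPH, an inner kinetochore protein, was lower on day 7 by the same test, with -1.26 to -0.42 on the day 7 arrays and 0.54 to 0.69 on those of day 0 (change -1.47, adjusted p = 0.0111), and had 0.02 on day 2. Of 12 subunits of the anaphase-promoting complex, 1 fell on day 7, ANAPC13 (-0.96, adjusted p = 0.0183; 8.33% of the list, beside 7.90% of all probes called lower), and none was called on days 2 and 14, with list medians of 0.08, 0.16 and 0.04.

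Of 27 DNA replication genes tested, 3 rose and none fell on day 2, 6 rose and 2 fell on day 7, and 1 rose on day 14, RRM2, a subunit of ribonucleotide reductase (4.47, 3.79 and 4.07, adjusted p = 0.0116, 0.00416 and 0.0440). These are shares called of 11.1%, 29.6% and 3.70% on days 2, 7 and 14, beside 2.52%, 18.2% and 0.116% of all probes. Their medians of 0.44, 0.45 and 0.51 were below those of the mitosis members. Among 16 genes that hold back the cell cycle or end mitosis, none was called on day 2 or day 14 and 3 rose on day 7. Those 3 are 18.8% of the list, beside 10.3% of all probes called higher on that day (18.2% in either direction). The largest change was that of CDKN2B, an inhibitor of the kinases that pair with D cyclins, with -1.34, -0.02 and 0.50 on day 7 and -3.50, -4.61 and -3.69 on day 0 (change 3.65, adjusted p = 0.00584).

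Marker lists of cell types moved beside the members, and their part in these results was not tested. All 8 smooth muscle markers had positive changes on days 2, 7 and 14, with 1, 4 and 0 called higher (12.5% on day 2 and 50% on day 7, beside 1.63% and 10.3% of all probes called higher). Their median signal was 2.55, 3.54, 4.72 and 3.06 in cow 1 on days 0, 2, 7 and 14, 2.25, 3.00, 3.75 and 2.23 in cow 2, and 2.85, 5.60, 5.18 and 5.33 in cow 3. The 11 epithelial markers had 2.54, 3.28, 1.35 and 2.84 in cow 1 on days 0, 2, 7 and 14, 2.56, 3.27, 2.60 and 2.90 in cow 2, and 2.13, 0.95, 2.24 and 2.70 in cow 3, with none called on days 2, 7 or 14. On day 2 cow 3 had the highest smooth muscle and the lowest epithelial median. It also had the smallest median change of the mitosis members on that day (1.64). Its smooth muscle median was the highest on days 7 and 14 too. On those days its median change of the mitosis members was the largest of the 3 cows (2.30 and 2.32). On day 7 cow 1 had the lowest epithelial median (1.35).

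Of the 12 macrophage markers, all 12 had positive changes on days 2 and 7 (medians 1.42 and 1.32), with 1 and 4 called higher (8.33% and 33.3%, beside 1.63% and 10.3% of all probes called higher); on day 14 the median was 0.42 and 10 of 12 were above 0. In cow 3 their median change was 0.00 on day 7, where that cow's mitosis members had 2.30. The 7 neutrophil markers tested had medians of 1.40, 0.74 and 0.42 and the 11 of stromal fibroblasts 0.35, 0.45 and 0.44, none called. Markers of T and NK lymphocytes had medians of -0.16, 0.09 and 0.06, those of B and plasma cells -0.78, 0.11 and 0.41, and those of endothelium 0.40, 0.12 and 0.13. Of the T and NK markers, 15.4% were called on day 2 and 23.1% on day 7, in both directions, beside 2.52% and 18.2% of all probes. Of the 9 endothelial markers, 1 and 2 were called higher (11.1% and 22.2%, beside 1.63% and 10.3% of all probes). No B and plasma cell marker was called on these days.

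Receptors that follow the oestrous cycle also changed, and their part in the members' changes was not tested either. A list of 4, the oestrogen receptors ESR1 and ESR2, the progesterone receptor PGR and the oxytocin receptor OXTR, had none called on days 2 and 14 and all 4 called on day 7, 3 higher and 1 lower, beside 18.2% of all probes called. On day 7, OXTR rose by 7.73 (adjusted p = 0.00363), ESR1 by 1.86 (adjusted p = 0.0121) and PGR by 1.74 (adjusted p = 0.00942), whereas ESR2 had a change of -3.10 (adjusted p = 0.0304). OXTR had 3.33, 3.61 and 1.33 on day 7 in cows 1, 2 and 3, against -4.71, -4.11 and -6.09 on day 0, and in each cow its day 2 and day 14 values lay between those.

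On day 14 the mitosis members' median of 2.08 stood beside marker list medians from -0.11 to 0.89.

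**Figure D5:**
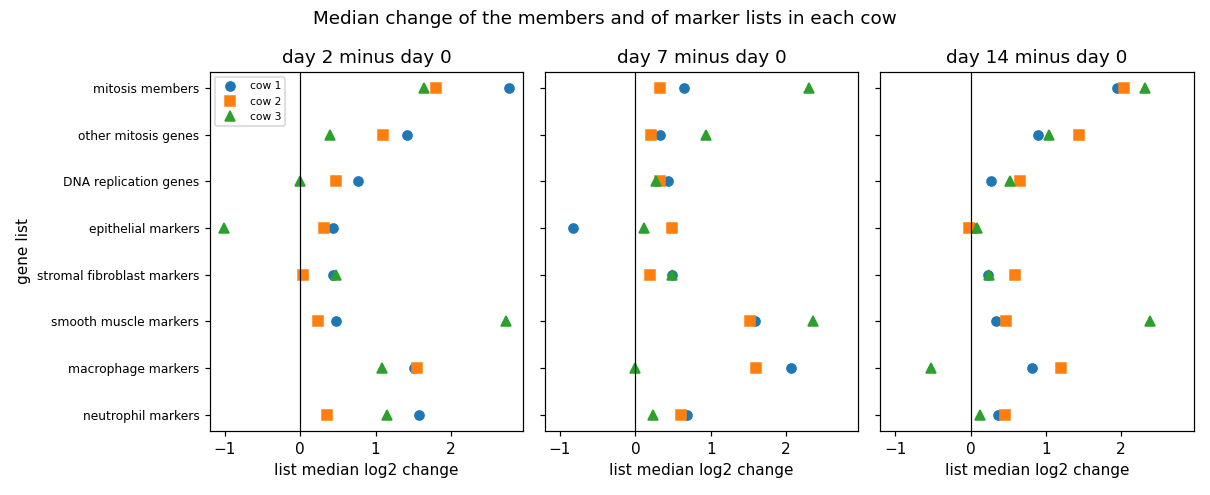
Median log2 change of the mitosis members and of 7 other gene lists on days 2, 7 and 14 minus day 0, with 1 symbol for each cow. On day 14 the 3 cows lie together for the members, between 1.95 and 2.32, and cow 3 stands apart in the smooth muscle and macrophage lists.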

How the data were processed

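Endometrial RNA of 12 biopsy samples was measured on one-colour arrays. The authors deposited scanner intensity values, made with Agilent Feature Extraction (11.5.1.1 per the file headers, 10.5.1.1 in the submitters' processing notes). Their deposited log2 value table was found to hold log2 intensity less each array's 75th percentile and less the probe median, where the median absolute difference reached 0.00051 at most and column medians were -0.07 to 0.08. The 75th percentile of intensity was 824 to 1117. Saturation affected 0 probes, and precision is limited by the number of arrays.

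Log2 processed intensity less the 75th percentile was fitted in limma 3.58.1 (R 4.3.3) on all 12 arrays with day and cow (6 residual and 2.33 prior degrees of freedom), after 1417 control spots and 31 flagged probes were left out; the fit was tested on simulated data. The cow is a block because, per the design text, each animal gave all 4 biopsies; deviations of the 18 same-cow pairs of arrays correlated at a mean of 0.285 (lowest 0.0235).

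Members and lists were chosen with earlier results of these data known. Values of every sample are given for members called in a contrast or the F-test and for the 3 largest rises and falls on each day against day 0; for other lists, at most the 4 genes with the smallest F-test p are named. Alternatives covered background correction, scaling, filters, block, array weights, sample names, probes and single arrays.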

Additional observations from a re-analysis of the deposited data

How the results depend on the processing

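Counts of called members changed with most settings, while the signs of the members' median changes against day 0 held in all 26. With the day 14 against day 2 contrast at 0 calls in each setting except array weights, the counts on day 2, 7 and 14 against day 0, day 7 against day 2 and the F-test (5, 8, 0, 1 and 9 as reported) were as follows. Without the cow, which is the replicate number, as a block they were 1, 2, 0, 1 and 2. With array weights they were 31, 4, 1, 34 and 38, with 14 for day 14 against day 7 and 16 for day 14 against day 2. With normexp and quantile normalization they were 2, 3, 6, 1 and 12 and with quantile scaling 6, 8, 1, 1 and 10. With no filter on dim probes they were 3, 4, 0, 0 and 4, with the filter on all arrays 7, 7, 3, 1 and 9 of 27 members, and with the mean of all probes of a gene 9, 8, 0, 1 and 10. With only the 2 days compared they were 0, 2, 0 and 0, and under the names of the file links 0 throughout. The deposited value table and current gene symbols gave the reported counts. No share of all probes is given under the other settings, so these counts do not set the members apart from the array. Leaving out a cow or an array (single arrays other than day 2 of cow 3 were chosen after seeing the data) gave 0 to 25 calls on day 2, 0 to 13 on day 7, 0 to 25 on day 14, 0 to 19 for day 7 against day 2, 0 to 1 for day 14 against day 7, 0 for day 14 against day 2 and 0 to 33 for the F-test; each such fit has fewer samples. The other causes were not tested.

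Median changes of the members on day 2, 7 and 14 against day 0 (2.03, 1.23 and 2.08) were 0.89, 0.17 and 0.55 under the file links, where day 14 against day 7 had 0.25. On days 2 and 14 they were 1.15 and 1.17 with normexp and quantile normalization, and on day 14 they were 1.42 with array weights and 1.70 with the filter on all arrays. Leaving out a cow or an array gave 1.61 to 2.50, 0.47 to 1.68 and 1.98 to 2.31, and -1.78 to -0.31, 0.77 to 1.86 and -0.21 to 0.71 for day 7 against day 2, day 14 against day 7 and day 14 against day 2. Of 1256 values of named members under other settings, 19 changed sign. SPC24 did so on day 2 with array weights (0.40) and under the file links (0.75), and leaving out a cow or an array gave it -0.50 to 0.44 on day 2 and -0.51 to 0.36 on day 14. HMMR did so on day 14 with array weights (-0.14), and leaving out a cow or an array gave -0.05 to 0.16. Under the file links, day 7 turned for CCNB2 (-0.09), TTK (-0.01), CDC20 (-0.49), DLGAP5 (-0.14) and HMMR (0.10).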
